A study of Arabidopsis thaliana with 16 samples.

Results

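The genes described here encode the proteins of the small (40S) subunit of the cytosolic ribosome of Arabidopsis, from the families RPSa to RPS26. They were taken by identifier from a fixed list, with no threshold on measured values. The list was chosen with earlier results of these data known. All 59 were found among the 27628 genes counted. They fall into 25 protein families, of which 10 had 3 gene copies, 14 had 2 and RPS15a had 1 on the list. A RefSeq gene table (assembly TAIR10.1) held every identifier but names only 13 of them as ribosomal, with a symbol for 15. The other family names follow the published naming of the Arabidopsis cytosolic ribosomal proteins. Whole seedlings aged 10 days, of the wild type Col-0 and of the mutant fust1, stayed at 22 °C or went through a heat shock at 37 °C, for a time not given in the sources used here. Poly(A) RNA was sequenced (RNA-seq), and so were the stretches of RNA that ribosomes protected from RNase I (Ribo-seq, whose reads are called footprints). Each genotype, temperature and assay had 2 libraries, so there were 8 groups and 16 libraries.

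The 40S subunit binds the messenger RNA, threads it through a channel and pairs its codons with transfer RNA. Each of its proteins is needed in a single copy per subunit, but plants keep several genes for almost every protein. In yeast and mammalian ribosome structures, RPS2, RPS3, RPS9, RPS15 and RPS23 lie at the entry of the mRNA channel and the decoding site. There, RPSa, RPS3a, RPS13, RPS14, RPS21 and RPS26 lie on the platform and at the mRNA exit, RPS10, RPS12, RPS16, RPS18, RPS19 and RPS20 in the head, and RPS4, RPS6, RPS7 and RPS24 among those in the body and foot. Translation of ribosomal protein mRNAs is known to follow growth signals passed on by the TOR kinase, and S6 kinase phosphorylates RPS6.

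RNA libraries held 9402134 to 12737375 counts and footprint libraries 6175906 to 13968790, with the fewest in Col-0 at 37 °C. The 4 heat-induced genes used as a check (HSP101, HSFA2, HSP18.2 and MBF1C) were at most at 20.3 CPM (read counts scaled to a common library size with the TMM factors of edgeR) at 22 °C and at least at 3339 at 37 °C. Of the seedling markers, the 5 photosynthesis genes were at 1259 CPM or more in every library, and the 5 pollen and seed genes at 1.96 or less. The 5 root markers together took 0.00457 to 0.0209 % of RNA counts at 22 °C and 0.00168 to 0.00733 % at 37 °C. The part of root tissue in the results was not tested, and in whole seedlings fewer cells of a type and less RNA per cell cannot be told apart. No measured standard ties libraries together, so a change is relative to the typical gene of the library. Scaling by library totals in place of TMM moves the median heat change of all genes from -0.10 to -1.13 for RNA and from -0.21 to -2.0 for footprints in Col-0 (log2), and from -0.12 to -1.04 and from -0.13 to -1.80 in fust1.

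Together the 40S genes took 1.10 and 1.10 % of the RNA counts of Col-0 at 22 °C, and 0.838 and 0.471 % at 37 °C. In fust1 they took 0.887 and 1.35 % at 22 °C, and 1.21 and 1.12 % at 37 °C. The share of RNA was therefore lower in both heated Col-0 libraries than in the unheated ones, while the heated fust1 libraries lay within the range of the unheated pair. Of the footprints they took 0.675 and 0.724 % in Col-0 at 22 °C and 0.374 and 0.391 % at 37 °C. In fust1 the footprint shares were 1.08 and 1.10 % at 22 °C and 0.391 and 0.491 % at 37 °C. Heated and unheated footprint libraries did not overlap in either genotype, and at 22 °C both fust1 libraries stood above both Col-0 libraries. The summed TMM-scaled footprint levels went the other way with heat, from 3944 ± 147 to 7500 ± 210 CPM in Col-0 and from 5808 ± 263 to 7472 ± 739 CPM in fust1 (mean ± SD, n = 2). Summed RNA levels on that scale were 8004 ± 329 and 9620 ± 3034 CPM in Col-0 (22 and 37 °C) and 7712 ± 1623 and 15373 ± 151 CPM in fust1. No test was made of the shares, since exact permutation of 2 and 2 libraries gives no p below 0.333.

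**Figure D1:**
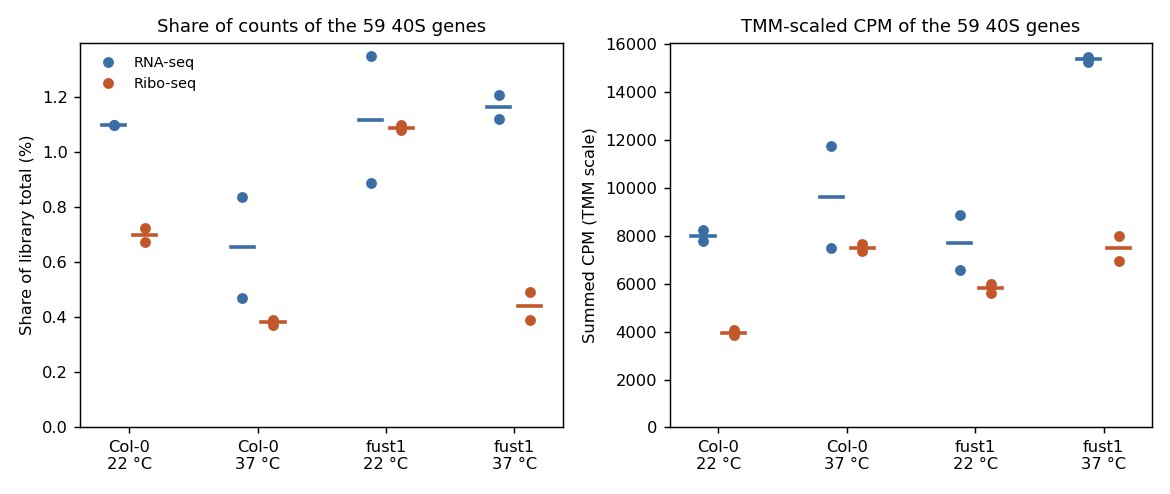
Summed level of the 59 genes in each of the 16 libraries, as a share of the library total (percent) and as TMM-scaled CPM, for RNA and footprints; points are libraries and short lines the mean of each group. By share, heated footprint libraries (0.374 to 0.491 %) lie below unheated ones (0.675 to 1.10 %), and on the TMM scale they lie above them.

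Heat in Col-0 changed the RNA of few 40S genes relative to the typical gene, and heat in fust1 raised most of them. In Col-0, 2 of the 58 genes that could be tested were called higher and 0 lower, against 19.2 % of all 19340 tested genes called higher and 18.2 % called lower (edgeR's quasi-likelihood test, Benjamini-Hochberg adjusted p under 0.05). Their median log2 change was 0.19, and 8 had an unadjusted p under 0.05, against 9221 of all 19340 genes. In fust1, 42 were called higher and 1 lower, against 18.8 % and 17.9 % of all genes, with a median of 0.94 and 22 genes at a rise of 2-fold or more. The gene left untested, the RPS23 gene AT3G09680, had 0 to 8 RNA counts and 3 to 10 footprints per library.

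The 2 genes called in Col-0 encode RPS7, a protein of the body, and RPS26, which lines the mRNA exit. The RPS7 gene AT1G48830 had 79.9 and 101 CPM of RNA at 22 °C and 171 and 125 CPM at 37 °C, so both heated libraries were above both unheated ones. Its log2 change was 0.71 ± 0.222 (adjusted p = 0.0274). The RPS26 gene AT3G56340 had 100 and 109 CPM at 22 °C and 205 and 131 CPM at 37 °C, again without overlap, a log2 change of 0.69 ± 0.249 (adjusted p = 0.049). In fust1 the same genes rose by 1.17 ± 0.224 and 1.29 ± 0.251. Both Col-0 calls were lost without either unheated Col-0 library or without the first heated one, and that of AT3G56340 also without either heated fust1 library. Under library totals their Col-0 values were -0.31 and -0.33.

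The heated Col-0 RNA libraries differed from each other across the whole set: replicate 1 was above replicate 2 in 57 of 59 genes. Without replicate 1, 0 genes were called higher and 2 lower in Col-0, with a median of -0.18. Without replicate 2, 14 were called higher, with a median of 0.49. Without either unheated library 0 were called, and without either heated fust1 library 1 was. Under library totals the direction turned, with 0 higher and 36 lower and a median of -0.83, beside an all-gene median of -1.13.

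In fust1, rises were spread over every position in the subunit. Called higher were 11 of 16 genes of the platform and exit, 8 of 11 of the entry and decoding side, 10 of 15 of the head and 13 of 16 of the body and foot. The largest rise was that of the RPS14 gene AT2G36160, whose protein sits on the platform. It had 99.8 and 160 CPM at 22 °C and 361 and 369 CPM at 37 °C, and both heated libraries stood far above the unheated ones. Its log2 change was 1.49 ± 0.295 (adjusted p = 0.00279). The RPS24 gene AT5G28060, for a body protein, had 117 and 184 CPM at 22 °C and 392 and 387 CPM at 37 °C. It rose by 1.37 ± 0.277 (adjusted p = 0.00302) and its groups did not overlap either.

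PFL (AT1G22780, RPS18) and RPS13A (AT4G00100, PFL2), named for mutants with pointed first leaves, rose in RNA with heat in fust1. PFL had 100 and 135 CPM at 22 °C and 291 and 290 at 37 °C, a rise of 1.31 ± 0.271. RPS13A had 139 and 192 CPM at 22 °C and 352 and 357 at 37 °C, a rise of 1.10 ± 0.259. Neither gene overlapped between temperatures in fust1. In Col-0 their changes were 0.47 ± 0.268 and 0.45 ± 0.257, and neither was called.

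RPS6 and EMB3010 encode RPS6, the S6 kinase substrate. EMB3010 (AT5G10360) had 170 and 216 CPM of RNA in fust1 at 22 °C and 423 and 399 CPM at 37 °C, a rise of 1.09 ± 0.265 (adjusted p = 0.00847). RPS6 (AT4G31700) had 167 and 234 CPM at 22 °C and 337 and 296 CPM at 37 °C, also without overlap. Its change of 0.66 ± 0.284 was not called (adjusted p = 0.0899). In Col-0 neither copy was called, at -0.09 ± 0.283 for RPS6 and 0.22 ± 0.263 for EMB3010.

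The single gene called lower in heated fust1 was the RPS9 gene AT5G39850, whose protein lies by the decoding site. It had 4.25 and 8.38 CPM of RNA at 22 °C and 2.72 and 2.59 at 37 °C, and the groups did not overlap. Its log2 change was -1.25 ± 0.446 (adjusted p = 0.0472), while the other RPS9 copy, AT5G15200, rose by 1.13 ± 0.249 from 363 and 472 CPM to 891 and 933 CPM. The 5 genes with a negative change in heated fust1 had 1 to 409 RNA counts per library (median 61), against a median of 1707.5 counts for the other 53. The call on AT5G39850 was lost under DESeq2 (adjusted p = 0.0584) and in 5 of the 8 fits that left out a library. The number called in fust1 was 19 without its unheated replicate 1 and 22 without its heated replicate 2. Under library totals it was 0 higher and 4 lower, with a median of 0.00.

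With heat in Col-0, footprints separated the 40S genes from each other far more than RNA did. In heated Col-0, 33 of 58 genes were called higher and 4 lower, against 27.8 % and 31.8 % of all 18445 tested genes. Their changes ran from -2.03 to 2.62, with a median of 0.58 beside -0.21 for all genes. The middle of the members, from the lower to the upper quartile, spanned 0.09 to 1.27 for footprints and -0.03 to 0.38 for RNA. Footprints had the wider middle over all tested genes too, at -1.59 to 0.85 beside -1 to 0.57 for RNA. The contrast was smaller in heated fust1, where the middle of the members spanned -0.19 to 0.49 for footprints and 0.7 to 1.1 for RNA. Leaving out any library gave 33 to 36 calls. Under library totals the direction turned, with 1 gene higher and 45 lower.

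**Figure D2:**
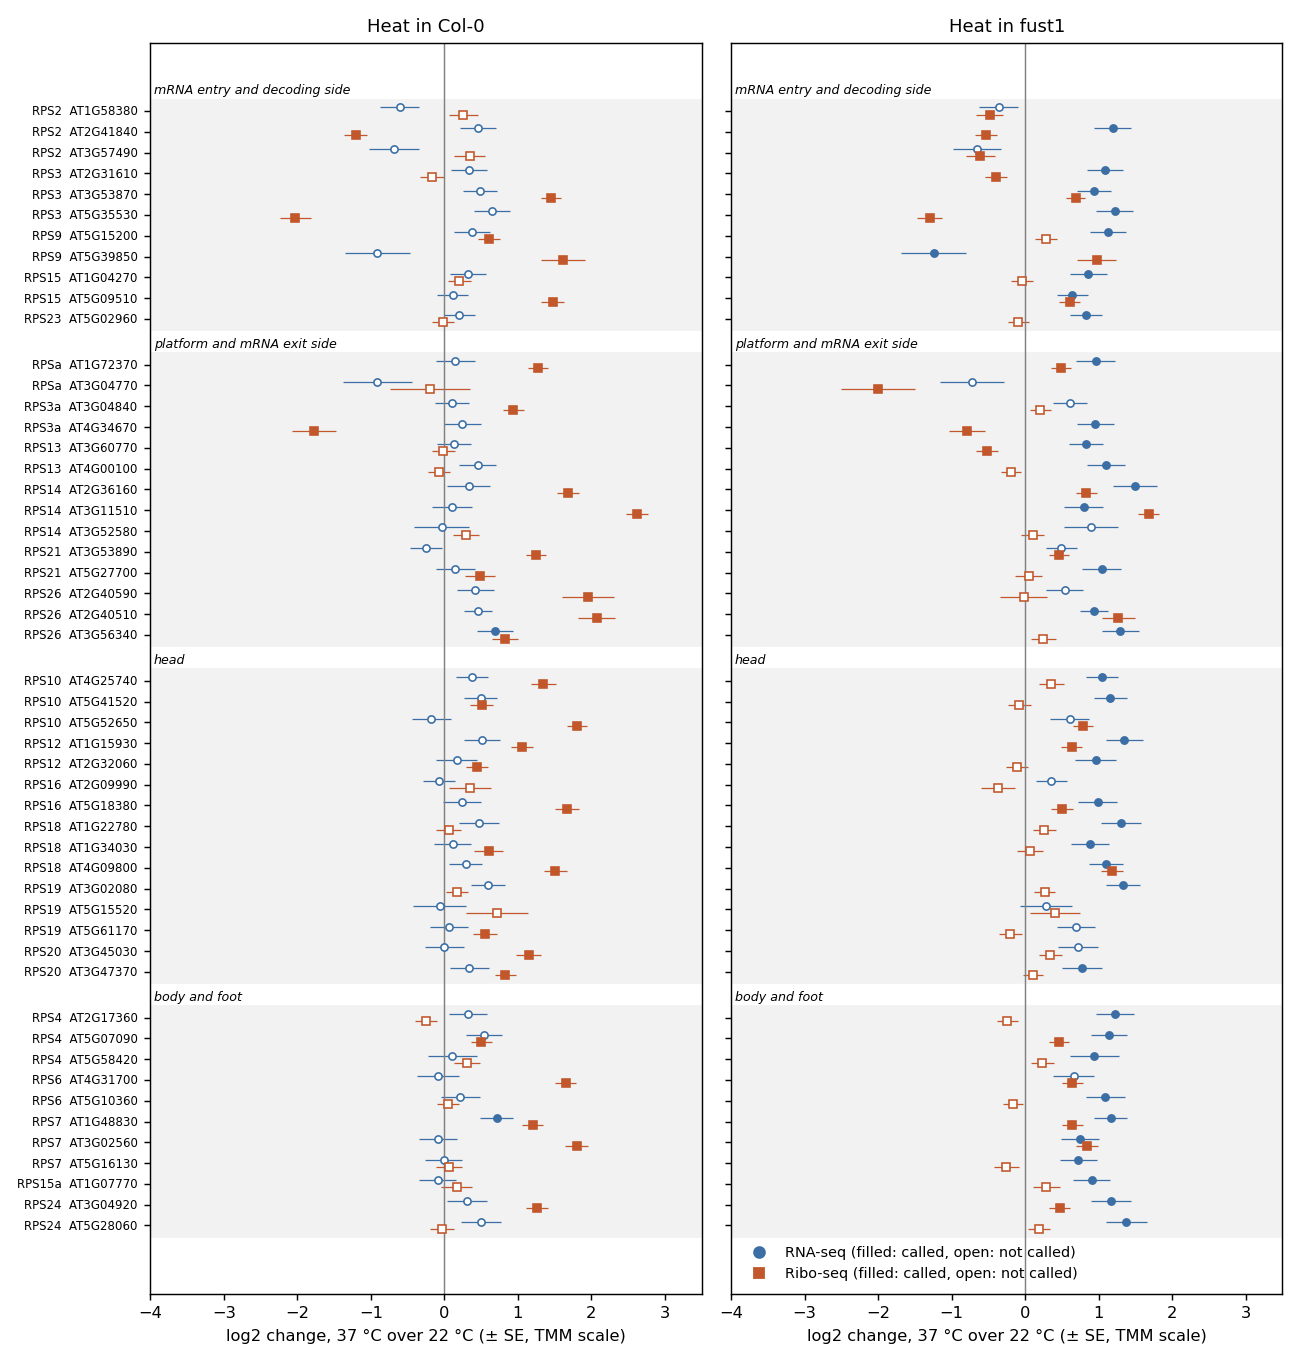
Log2 change with heat of tested genes (those not reported here left out), for RNA and footprints in Col-0 and fust1 on the TMM scale, by position in the subunit; bars are standard errors, filled symbols are called at an adjusted p of 0.05 and open symbols are not. Footprint changes in Col-0 run from -2.03 to 2.62, while most RNA changes in fust1 lie near their median of 0.94; under library totals the heat medians of the set are -0.83 and 0.00 for RNA and -1.22 and -1.45 for footprints (Col-0 and fust1).

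On the entry and decoding side, 4 of 11 genes gained footprints in Col-0 and 2 lost them, with a median of 0.26. The largest fall of the whole set was that of the RPS3 gene AT5G35530, whose protein helps to grip the incoming mRNA. It had 42.2 and 38.8 CPM of footprints at 22 °C and 9.79 and 10 CPM at 37 °C. Both heated libraries, with 30 and 33 footprints, stood far below the unheated pair, and the log2 change was -2.03 ± 0.213 (adjusted p = 3.22e-09). The RPS2 gene AT2G41840, for a protein next to RPS3, had 155 and 133 CPM at 22 °C and 52.5 and 71.8 CPM at 37 °C. It fell by 1.21 ± 0.16 on the log2 scale (adjusted p = 2.37e-07), again with no overlap. The low-abundance RPS9 gene AT5G39850 rose, from 3.81 and 4.6 CPM to 12.1 and 13.7 CPM (1.62 ± 0.299, adjusted p = 3.42e-05).

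On the platform and exit side, 10 of 16 genes rose and 2 fell, with a median of 0.79. The largest rise of the set was that of the RPS14 gene AT3G11510, from 167 and 193 CPM at 22 °C to 1201 and 1017 CPM at 37 °C. Both heated libraries stood far above both unheated ones, and the log2 change was 2.62 ± 0.148 (adjusted p = 6.87e-15). Another RPS14 gene, AT2G36160, went from 90.1 and 111 CPM to 325 and 319 CPM (1.68 ± 0.147), and the third, AT3G52580, from 33.0 and 33.5 CPM to 34.3 and 47.1 CPM (0.30 ± 0.173, not called). The RPS26 gene AT2G40510 had few footprints at 22 °C, 4.64 and 4.65 CPM, and 22.5 and 16.7 CPM at 37 °C. Its rise was 2.07 ± 0.255 (adjusted p = 6.27e-08), with the heated libraries well clear of the unheated pair. The other RPS26 copies rose by 1.95 ± 0.351 (AT2G40590) and 0.82 ± 0.181 (AT3G56340).

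P40 (AT1G72370), which encodes RPSa, a protein of the platform near the exit, went from 169 and 167 CPM to 426 and 389 CPM, a rise of 1.28 ± 0.138. The RPS21 gene AT3G53890, for its neighbour on the platform, went from 99.7 and 106 CPM to 260 and 227 CPM, a rise of 1.25 ± 0.136. In both, the heated pair lay above the unheated pair. Against these stood the RPS3a gene AT4G34670, with 58.2 and 48.6 CPM at 22 °C and 7.83 and 23.1 CPM at 37 °C. It fell by 1.77 ± 0.302 (adjusted p = 0.0001). The heated libraries stood far apart from each other here, and the value ran from -2.85 to -1.30 when libraries were left out.

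All 15 head genes had a positive change in Col-0 footprints, and 11 were called higher, with a median of 0.72. The RPS10 gene AT5G52650 went from 59.5 and 66.1 CPM to 234 and 205 CPM, a rise of 1.81 ± 0.141 (adjusted p = 9.42e-12). The RPS16 gene AT5G18380 went from 23.6 and 24.7 CPM to 80.3 and 73.3 CPM, a rise of 1.67 ± 0.16 (adjusted p = 5.75e-10). Heated and unheated libraries were far apart for both. PFL stayed among the 4 head genes that were not called, at 39.7 and 43.5 CPM at 22 °C and 36.2 and 50.5 CPM at 37 °C (0.06 ± 0.17).

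Of the 16 body and foot genes 8 were called higher and 0 lower, with a median of 0.41. The RPS7 gene AT3G02560 had 44.4 and 48.1 CPM of footprints at 22 °C and 183 and 140 CPM at 37 °C, a rise of 1.80 ± 0.155 (adjusted p = 6.72e-11). RPS6 had 164 and 203 CPM at 22 °C and 578 and 572 CPM at 37 °C, a rise of 1.65 ± 0.146 (adjusted p = 1.21e-10). EMB3010, the other RPS6 copy, had 93.7 and 102 CPM at 22 °C and 94.3 and 109 CPM at 37 °C, so that its temperatures overlapped (0.05 ± 0.143). The copies of this kinase substrate thus differed by 1.6 in their footprint response, against 0.30 between their RNA responses.

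Copies of the same protein differed in this way in most families. Among the 23 families with 2 or more tested copies, the median gap between the highest and the lowest copy was 1.29 for Col-0 footprints and 0.36 for Col-0 RNA, on the log2 scale. The gap was above 1 on that scale in 17 families for footprints and in 4 for RNA. In heated fust1 the medians were 0.83 and 0.44, with 8 and 5 families above 1. Over all members, the quartiles in Col-0 spanned 0.09 to 1.27 for footprints and -0.03 to 0.38 for RNA. Whether copies differ more than members of different families was not tested. In Col-0 footprints, 3 families had copies called in opposite directions, among them RPS3 and RPS3a. For RNA, 0 families had copies called in opposite directions in Col-0, and RPS9 did in fust1. Reads that match several copies can be split or dropped in counting; how this was handled is not given in the sources used here, and its part in these gaps was not tested.

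The ratio between copies within a library does not depend on scaling. It is a ratio of counts, not corrected for gene length. The RPS3 copy AT5G35530 had 31.4 and 27.6 % of the footprints of AT3G53870 in Col-0 at 22 °C and 2.50 and 2.81 % at 37 °C. In fust1 it had 22.5 and 27.3 % at 22 °C and 5.63 and 6.75 % at 37 °C. In RNA the same ratio was 57.1 to 71.7 % in the 4 unheated libraries and 72.2 to 79.5 % in the 4 heated ones, so that it moved the other way. The partner AT3G53870 rose in Col-0 footprints from 134 and 140 CPM to 391 and 357 CPM (1.45 ± 0.136), and the third copy, AT2G31610, was at 56.7 and 63.8 CPM and then at 50.2 and 56.9 CPM (-0.17 ± 0.167).

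The RPS3a copy AT4G34670 had 42.0 and 31.3 % of the footprints of AT3G04840 in Col-0 at 22 °C and 2.68 and 8.58 % at 37 °C. In fust1 the ratio went from 38.5 and 37.5 % to 17.8 and 19.8 %. Unheated and heated libraries did not overlap in either genotype, while the RNA ratio went from 67.6 to 75.8 % without heat to 78.8 to 91.0 % with it.

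The RPS2 copies behaved differently from those of RPS3 and RPS3a. AT2G41840 had 905 and 710 % of the footprints of XW6 (AT1G58380) in Col-0 at 22 °C and 260 and 319 % at 37 °C. In fust1 the ratio was 703 and 729 % at 22 °C and 618 and 763 % at 37 °C, so that temperatures overlapped there and not in Col-0. The RNA ratio was higher in every heated library, from 1190 to 1420 % at 22 °C to 2940 to 3740 % at 37 °C. XW6 had 62 to 131 footprints per heated library.

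**Figure D3:**
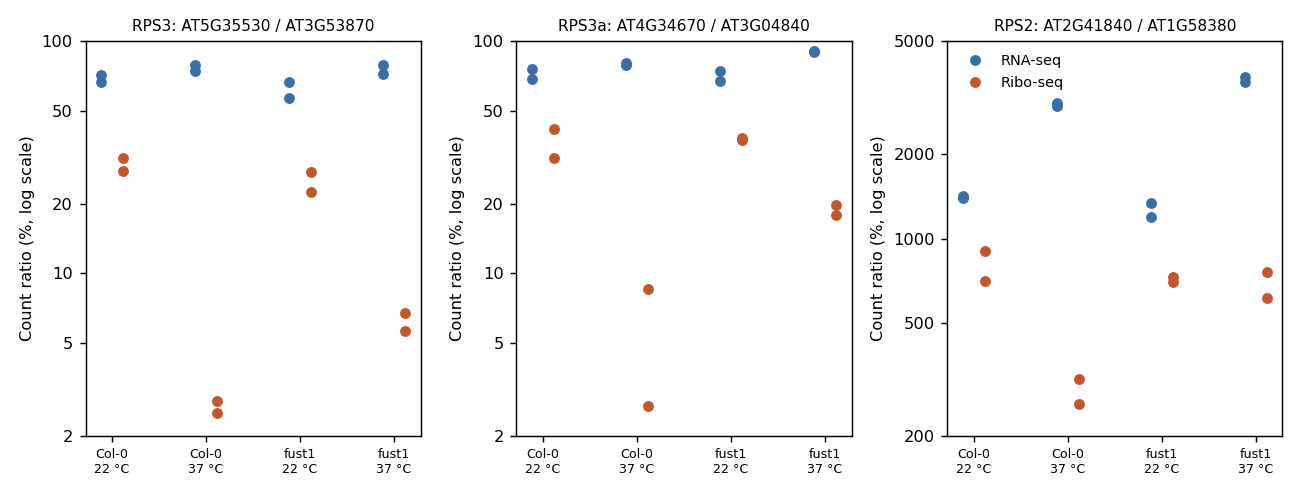
Ratio of the counts of copies of the same protein within each library (percent, log axis), for pairs of RPS3, RPS3a and RPS2 genes; points are libraries of RNA or footprints by genotype and temperature. For RPS3 and RPS3a the footprint ratio is lower in every heated library than in every unheated one, and the RNA ratio is not; for RPS2 the footprint ratio is lower in heated Col-0 alone, and the RNA ratio is higher in every heated library.

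In fust1, heat raised the footprints of fewer 40S genes and lowered those of more. Called higher were 19 genes and lower 10, against 27.6 % and 31.2 % of all genes, with a median of 0.22. All 19 genes called higher in fust1 were among the 33 called higher in Col-0. The 4 called lower in Col-0 were among the 10 called lower in fust1, and 0 were called in opposite directions. These overlaps were not counted over all genes. Across the 58 genes the heat changes of footprints in both genotypes had a Pearson r of 0.774 and a Spearman rho of 0.837, a description over genes that share libraries and scaling within each genotype. Leaving out a library gave 21 to 29 calls, and under library totals 0 were higher and 56 lower.

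The largest rises in fust1 were those of the same RPS14 and RPS26 genes as in Col-0. AT3G11510 had 310 and 279 CPM of footprints at 22 °C and 954 and 931 CPM at 37 °C, a rise of 1.68 ± 0.142 (adjusted p = 6.23e-11). AT2G40510 had 9.17 and 6.85 CPM at 22 °C and 17.6 and 20.8 CPM at 37 °C, a rise of 1.27 ± 0.221 (adjusted p = 1.66e-05). In both genes the unheated fust1 libraries stood above the unheated Col-0 ones. When heated, the fust1 libraries lay below the Col-0 ones for AT3G11510 and overlapped with them for AT2G40510. The RPS3 gene AT5G35530 fell in fust1 by 1.30 ± 0.17, from 48.8 and 51.7 CPM to 18.2 and 22.4 CPM, and AT2G31610 fell by 0.40 ± 0.156, from 84.1 and 73.5 CPM to 50.8 and 68.4 CPM. The call on AT2G31610 was lost without replicate 1 of unheated or of heated fust1 (-0.30 and -0.24, adjusted p = 0.219 and 0.244).

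A large fall in fust1 rested on few reads. RPSAb (AT3G04770), the minor RPSa gene, had 3.39 and 4.25 CPM of footprints at 22 °C and 1.63 and 0.41 CPM at 37 °C (-2.0 ± 0.502, adjusted p = 0.00121). The value ran from -3.24 to -1.26 when libraries were left out, and the call was lost without the heated fust1 replicate 2 (adjusted p = 0.0568). Its abundant partner P40 moved the other way and rose by 0.49 ± 0.135. The 3 RPS2 genes among the members lost footprints in fust1, AT2G41840 by 0.53 ± 0.148, AT3G57490 by 0.61 ± 0.199 and XW6 (AT1G58380) by 0.48 ± 0.182.

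The change of footprints with heat itself differed between genotypes for 19 genes. In the test of the difference (the log2 heat change of fust1 minus that of Col-0), 0 genes had a more positive footprint change in fust1 and 19 a more negative one, against 5.49 % and 3.21 % of all genes. The median difference was -0.55, beside 0.08 for all genes, and 50 of 58 genes had the more negative change in fust1. The 19 came from every position: 6 of 16 on the platform, 3 of 11 at the entry, 6 of 15 in the head and 4 of 16 in the body. This test uses all 8 footprint libraries, so it shares them with each comparison above and below. The count was 8 without the unheated Col-0 replicate 1, 5 without the heated Col-0 replicate 1 and 11 without the unheated fust1 replicate 1.

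The RPS26 gene AT2G40590 had the largest called difference. It had 2.53 and 2.22 CPM of footprints in Col-0 at 22 °C and 6.85 and 11.6 CPM at 37 °C. In fust1 it had 5.54 and 4.83 CPM at 22 °C and 4.36 and 5.73 CPM at 37 °C, where the temperatures overlapped. The difference was -1.98 ± 0.465 (adjusted p = 0.00762). It rested on 21 to 42 footprints per heated library and ran from -2.25 to -1.50 when libraries were left out. For RPS6 the difference was -1.01 ± 0.202 (adjusted p = 0.00211): its footprints were at 324 and 300 CPM in unheated fust1 and at 437 and 537 CPM in heated fust1. The genes that lost footprints in Col-0 were not among the 19; RPS3 gene AT5G35530 had a difference of 0.73 ± 0.279 and the RPS3a gene AT4G34670 of 0.98 ± 0.392, neither called.

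For RNA the difference ran in the other direction and did not pass the test. Of 58 genes, 57 had the more positive RNA change in fust1, with a median difference of 0.73. The test called 0 of them with edgeR and 0 with DESeq2, against 0 % of all genes called higher and 0.031 % lower by edgeR. With edgeR 17 of the 58 had an unadjusted p under 0.05, against 1803 of all 19340 genes. Without the heated Col-0 replicate 1, 11 were called higher. Among the genes named above, the difference was 1.16 ± 0.41 for the RPS14 gene AT2G36160, 0.87 ± 0.372 for EMB3010 and 0.74 ± 0.4 for RPS6.

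**Figure D4:**
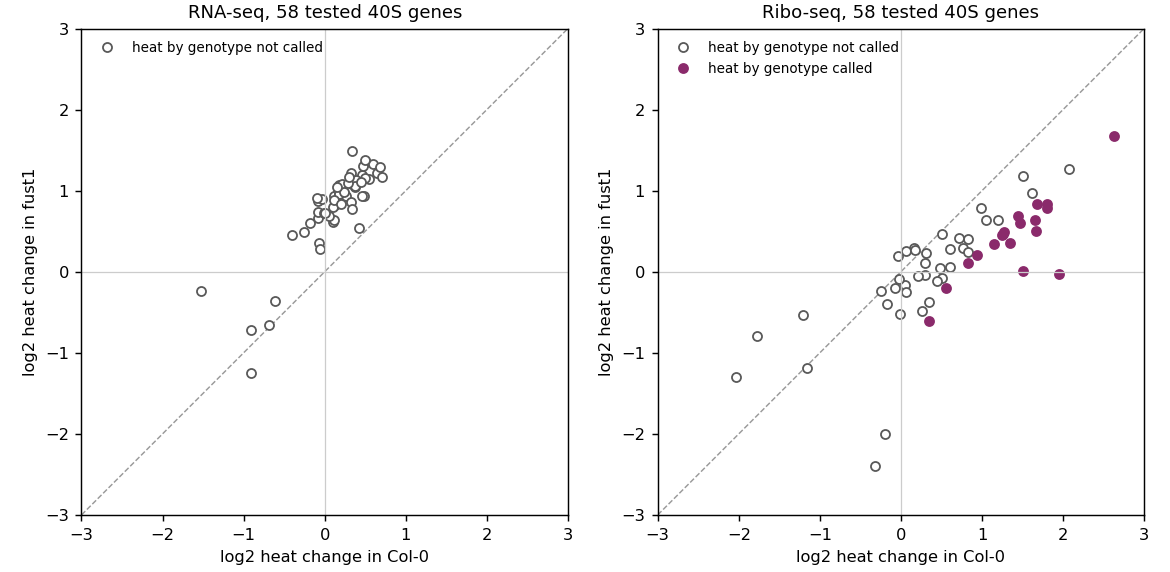
Log2 heat change in fust1 against that in Col-0 for each tested gene, for RNA and footprints on the TMM scale; the diagonal marks equal changes and filled symbols mark genes whose difference was called. For RNA 57 of 58 points lie above the diagonal, and for footprints 50 of 58 lie below it.

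Without heat, the mutant had more footprints on 40S mRNAs than the wild type, while no RNA difference was called; the ratio of both, described below as translation efficiency, was not called for any member either. At 22 °C, 34 of 58 genes were called higher in fust1 footprints and 0 lower, against 2.31 % and 2.07 % of all genes. All 58 changes were positive, against 8647 of all 18445 tested genes. The changes of the 58 ran from 0.24 to 1.12, with a median of 0.58 beside -0.03 for all genes. For RNA at 22 °C 0 of the 58 were called by edgeR and 0 by DESeq2, against 0.0465 % of all genes called higher and 0.0103 % lower by edgeR. With edgeR 0 of the 58 had an unadjusted p under 0.05, against 672 of all 19340 genes. Their RNA median was -0.03 (0.16 without fust1 replicate 1 and -0.25 without its replicate 2). Copies moved alike here: the median gap within families was 0.17 for footprints, and in 9 families every copy was called higher. The RNA libraries of unheated fust1 differed, with replicate 2 above replicate 1 in 59 of 59 genes.

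The RPS26 gene AT2G40590, with the footprint values given above, was higher by 1.12 ± 0.291 (adjusted p = 0.0234). That gene had 43 to 139 footprints per unheated library, and DESeq2 gave it 1.10 without an adjusted p. The RPS16 gene AT5G18380 had 23.6 and 24.7 CPM in Col-0 and 49.0 and 45.9 CPM in fust1, higher by 0.97 ± 0.149 (adjusted p = 0.000238). RPS6 had 164 and 203 CPM in Col-0 and 324 and 300 CPM in fust1, higher by 0.77 ± 0.142 (adjusted p = 0.00167). The fust1 pair was above the Col-0 pair in each of these. PFL was higher by 0.58 ± 0.151, EMB3010 by 0.60 ± 0.135 and RPS13A by 0.49 ± 0.134, all called. The genes that lost footprints with heat in Col-0 were higher as well, by 0.31 ± 0.153 for the RPS3 gene AT5G35530 and 0.33 ± 0.145 for the RPS2 gene AT2G41840, without a call. The count was 4 without Col-0 replicate 1, 12 without Col-0 replicate 2, 12 without fust1 replicate 1 and 14 without fust1 replicate 2, at medians of 0.56 to 0.62.

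**Figure D5:**
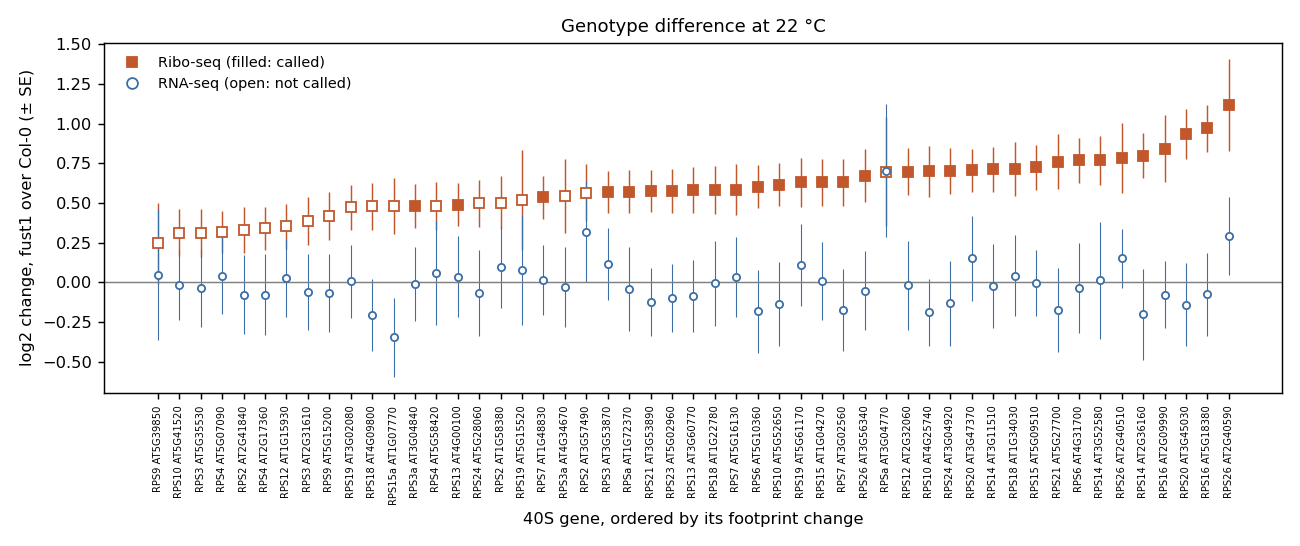
Log2 difference of fust1 from Col-0 at 22 °C for tested genes (those not reported here left out), for footprints and RNA, with standard errors as bars. All footprint values shown lie above 0 (0.24 to 1.12), and the RNA values lie on both sides of it.

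At 37 °C fewer 40S genes than at 22 °C were called different in footprints between genotypes, and their median difference was smaller. Their differences spread more widely, from -1.10 to 1.52, against 0.24 to 1.12 at 22 °C. Heated footprint libraries held 23443 to 58561 counts of members and unheated ones 78371 to 153563, and the part of depth was not tested. Called higher in fust1 were 8 genes and lower 0, against 6.11 % and 4.61 % of all genes, with a median of 0.09 beside 0.06. The largest called difference was that of the RPS3a gene AT4G34670, with 7.83 and 23.1 CPM in heated Col-0 and 36.7 and 52.6 CPM in heated fust1 (1.52 ± 0.313, adjusted p = 0.00597). Over the fits without a library it ran from 1.04 to 2.59, and the call was lost without the heated fust1 replicate 2 (adjusted p = 0.0529). The next largest was that of the RPS3 gene AT5G35530, with 9.79 and 10 CPM against 18.2 and 22.4 CPM (1.04 ± 0.231, adjusted p = 0.00406). Neither overlapped between genotypes, and both are genes that lost footprints with heat. PFL, at 36.2 and 50.5 CPM against 70.8 and 78.4 CPM, was also called (0.78 ± 0.172, adjusted p = 0.00376). Without the heated Col-0 replicate 1 the count was 4, without the heated fust1 replicate 1 it was 15 and without the heated fust1 replicate 2 it was 4.

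For RNA at 37 °C 57 of 58 genes were higher in fust1, against 9837 of all 19340 tested genes. The median of the 58 was 0.66, beside 0.01 for all genes. None of the 58 was called by edgeR and 1 was by DESeq2, against 0.0155 % of all genes called higher and 0.0362 % lower by edgeR. With edgeR 45 of the 58 had an unadjusted p under 0.05, against 2823 of all 19340 genes. RPS6 had 250 and 137 CPM in heated Col-0 and 337 and 296 CPM in heated fust1, a difference of 0.71 ± 0.284 (adjusted p = 0.29). Its lower Col-0 value, like that of most members, came from replicate 2. Without Col-0 replicate 1 of the heated RNA libraries, 41 genes were called higher, with a median of 1.03, and without its replicate 2 the count was 0 and the median 0.37.

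Translation efficiency (TE), the change in footprints relative to that in RNA in a joint fit of all 16 libraries, put both assays together. With heat in Col-0, 21 genes rose and 4 fell in TE, against 15.5 % and 21.5 % of all 17816 genes tested, with a median of 0.49. With heat in fust1, 2 rose and 22 fell, against 12.5 % and 15.7 %, with a median of -0.70. No member was called in opposite directions in the genotypes. Called higher in both were 2, lower in both 4, higher in Col-0 alone 19 and lower in fust1 alone 18. These joint calls were not counted over all genes. The test of the difference called 2 genes, both lower in fust1, against 0.965 % of all genes called higher and 0.129 % lower. The median difference was -1.16 and 56 of 58 genes had the more negative TE change in fust1. DESeq2 called 21, and the count was 41 without the heated Col-0 RNA replicate 1, 17 without the unheated fust1 RNA replicate 2 and 0 or 1 without each of the other 14 libraries. The number called with heat in fust1 was 15 without unheated fust1 replicate 1 of either assay and 14 without the heated fust1 Ribo-seq replicate 1. Under library totals the Col-0 split was 5 higher and 13 lower and the fust1 split 1 higher and 45 lower.

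The 2 genes called were the RPS16 gene AT5G18380 (-1.92 ± 0.43, adjusted p = 0.0398) and the RPS21 gene AT3G53890 (-1.53 ± 0.358, adjusted p = 0.0483). The RPS16 gene had 302 and 261 CPM of RNA in Col-0 at 22 °C and 417 and 247 CPM at 37 °C, against 234 and 300 CPM and then 521 and 538 CPM in fust1. Its footprints were at 49.0 and 45.9 CPM and then 60.6 and 73.2 CPM in fust1, so its RNA rose more than its footprints there. In Col-0 its TE rose by 1.43 ± 0.307 (adjusted p = 0.0015).

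Among single genes, TE with heat repeated the footprint pattern in Col-0. It rose by 2.52 ± 0.32 for the RPS14 gene AT3G11510, 1.73 ± 0.34 for RPS6 and 1.13 ± 0.305 for P40. TE fell most for the RPS3 gene AT5G35530, at -2.68 (-2.98 to -2.29 when libraries were left out). It fell by 2.02 ± 0.465 for the RPS3a gene AT4G34670, with -3.09 to -1.54 when libraries were left out. For the RPS2 gene AT2G41840 it fell by 1.67 ± 0.313. The RPS9 gene AT5G39850, at under 10 CPM of RNA throughout, rose in TE in both genotypes, by 2.53 ± 0.521 and 2.21 ± 0.514. In fust1 AT3G11510 was also called higher (0.88 ± 0.316, adjusted p = 0.0442 by edgeR), but the call was lost in 13 of 16 fits without a library, under RLE scaling (adjusted p = 0.0649) and without the filter (adjusted p = 0.0549). In fust1 TE fell for the RPS3 gene AT5G35530 (-2.52 ± 0.301) and also for RPS13A (-1.30 ± 0.293), EMB3010 (-1.25 ± 0.303) and PFL (-1.05 ± 0.325). RPS6 was at -0.02 ± 0.336 there. Between genotypes, 0 genes were called in TE at 22 °C (25 at an unadjusted p under 0.05, median 0.61) and 0 at 37 °C (21, median -0.54) by edgeR, and 0 and 6 by DESeq2. Without the heated Col-0 RNA replicate 1 the count at 37 °C was 22. Of all genes, 0 % were called higher and 0.00561 % lower at 22 °C, and 1.14 % and 0.18 % at 37 °C. With edgeR 865 of all 17816 genes had an unadjusted p under 0.05 at 22 °C and 2894 at 37 °C.

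Changes of RNA and footprints did not follow each other from gene to gene. Across the 58 genes their heat changes had a Pearson r of -0.0417 in Col-0 and 0.282 in fust1, as a description over genes measured in separate RNA and footprint libraries of the same groups. In fust1, 15 genes were called higher in both, 21 higher in RNA alone and 6 higher in RNA but lower in footprints, while the RPS9 gene AT5G39850 was lower in RNA and higher in footprints. In Col-0, 31 were called higher in footprints alone and 4 lower in footprints alone.

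The remaining genes of the subunit, its assembly and its regulation were counted beside the members, with no test between lists. Of all tested genes, 27.8 % were called higher and 31.8 % lower in footprints with heat in Col-0, and 27.6 % and 31.2 % in fust1. For footprints of unheated fust1 against Col-0 the shares were 2.31 % and 2.07 %, and for RNA with heat in fust1 18.8 % and 17.9 %. Of 29 other tested 40S genes (families outside the list and further copies), 20 gained footprints with heat in Col-0 and 3 lost them (median 1.00), and 18 were higher and 0 lower in unheated fust1 (median 0.70). Of 62 genes for the large (60S) subunit, 23 gained and 16 lost footprints with heat in Col-0 (median 0.12, beside 27.8 % higher and 31.8 % lower of all genes), 12 gained and 17 lost them in fust1 (median -0.12), 31 were higher in unheated fust1 (median 0.52), and 40 rose and 1 fell in RNA with heat in fust1 (median 0.87). The 26 assembly factors of the 40S subunit, which process ribosomal RNA and fold it around these proteins, mostly lost footprints or were not called in heat: 3 gained and 14 lost footprints in Col-0 (median -1.36), and 0 gained and 16 lost them in fust1 (median -1.19). In unheated fust1, 4 of those factors had more footprints and 0 fewer (median 0.46). Of 15 tested genes of the TOR and S6 kinase pathway, 1 gained and 9 lost footprints with heat in Col-0 (median -1.14), 2 gained and 8 lost them in fust1 (median -0.66), and 0 differed between unheated genotypes (median -0.26). Under library totals the footprint heat medians in Col-0 were -0.80 for the other 40S genes, -1.68 for the 60S genes, -3.15 for the assembly factors and -2.93 for the TOR and S6 kinase genes, so that the positive medians of the first pair of lists turned negative. The RNA median of 60S genes in heated fust1 also turned, to -0.07, while the medians in unheated fust1 stayed at 0.79 for the other 40S genes, 0.60 for the 60S genes and 0.54 for the assembly factors.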

How the data were processed

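Poly(A) RNA-seq and Ribo-seq libraries of 2 genotypes at 22 and 37 °C were analysed, with 2 libraries per group. The authors deposited raw whole-number counts per gene, and 0 count columns were left unused. Tools named in the submitters' processing notes were Bowtie 1.0.1, fastp 0.19.7, featureCounts 1.6.2 and STAR 2.7.3a, with the build TAIR10, without their order or settings. Counting strand and the treatment of reads that match several genes are not given in the sources used here. No 2 libraries were alike within sampling noise (chi-square per degree of freedom 5.39 to 29 between replicates). The labels call replicates biological but do not say that they came from separate cultures, so p-values measure the spread between these samples.

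Members were taken by identifier. The members, the gene lists, the positions in the subunit and the tests were chosen with earlier results of these data known. Genes passed edgeR's filterByExpr at a minimum count of 10, which left 19340 genes for RNA, 18445 for footprints and 17816 for TE. Each assay was fitted over its 8 libraries with edgeR 4.0.16 (glmQLFit, robust, and glmQLFTest; TMM factors within the assay; 4 residual degrees of freedom), and TE over all 16 libraries (8 residual degrees of freedom) as the assay by group interaction. P-values were adjusted over all tested genes by Benjamini-Hochberg, and a call is an adjusted p under 0.05. The standard error beside a log2 change is the size of the change over the square root of the F statistic. CPM are TMM-scaled. R 4.3.3, limma 3.58.1, Python 3.11.15 and matplotlib 3.10.9 were also used. The fits were run on simulated data for heat in fust1. There few genes were changed and all others had the same scaled mean in every group, unlike the real heat comparison. In that setting the RNA and TE fits missed most 2-fold changes, and the footprint fit found most of them. The share of false calls there was above the 0.05 threshold for RNA and TE and below it for footprints. Whether these rates hold for the real comparisons, where many more genes were called, was not tested. The 15 comparisons were heat in each genotype, genotype at each temperature and their difference, for RNA, footprints and TE.

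Genes named in each comparison were those with the largest called changes (at most 2 in each direction) and no overlap of libraries, the RPS6 genes, PFL, RPS13A and copies called in opposite directions. Some members are not reported by name here, though counts and sums over the set hold them. Other members named were chosen after their values were seen. A clause of that rule on footprints per codon was not applied, since no coding lengths were used here. Alternatives were DESeq2 1.42.0, RLE scaling, library totals, every gene with 1 count, the replicate number as a block, the compared groups alone and each library left out. The last leaves a group with 1 library, which is assumed to vary like the other groups.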

Additional observations from a re-analysis of the deposited data

Results flagged for a closer look

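Among the members reported by name here, the heat response differed between fust1 and Col-0 in 20 cases in a test of the difference itself. The difference is the log2 heat change of fust1 minus that of Col-0 (edgeR's quasi-likelihood test, Benjamini-Hochberg adjusted p under 0.05). All 20 cases were toward a more negative change in fust1. For footprints at the platform and exit these were P40 at -0.79, the RPS3a gene AT3G04840 at -0.73, the RPS14 genes AT2G36160 at -0.85 and AT3G11510 at -0.95, the RPS21 gene AT3G53890 at -0.79 and the RPS26 gene AT2G40590 at -1.98. At the entry and decoding side they were the RPS2 gene AT3G57490 at -0.95, the RPS3 gene AT3G53870 at -0.76 and the RPS15 gene AT5G09510 at -0.87.

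In the head the footprint differences were -0.99 and -1.02 for the RPS10 genes AT4G25740 and AT5G52650, -1.17 for the RPS16 gene AT5G18380, -0.75 for the RPS19 gene AT5G61170, and -0.80 and -0.72 for the RPS20 genes AT3G45030 and AT3G47370. In the body and foot they were -1.01 for RPS6, -0.96 for the RPS7 gene AT3G02560 and -0.79 for the RPS24 gene AT3G04920. In TE the difference was -1.92 for the RPS16 gene AT5G18380 and -1.53 for the RPS21 gene AT3G53890.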

How the results depend on the processing

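The scaling decided the sign of the heat changes, and 1 library could decide a count. With 2 libraries per group, many changes can be missed, and members with few counts have wide errors. RLE scaling left every count of members called within 1.5 times its value. Library totals shift the log2 changes of all genes of a comparison by about the same amount, and the cause of the other changes below was not tested.

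Under library totals, the members called with heat numbered 36 in Col-0 and 4 in fust1 for RNA, 46 and 56 for footprints, and 18 and 46 for TE. With that scaling the count was 17 for footprints at 37 °C between genotypes and 0 for the TE difference of heat by genotype. DESeq2 called 4 members for RNA heat in Col-0, 1 for RNA between genotypes at 37 °C, 6 for TE between genotypes at 37 °C and 21 for the TE difference. Without a filter beyond 1 count, the TE difference called 5. With the compared groups alone, RNA heat in Col-0 called 1 and footprints between genotypes at 22 °C called 52.

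Same-numbered libraries shared only a number: correlations of their deviations from group means ran from -0.283 to 0.259 for RNA and from -0.103 to 0.0868 for footprints. With the replicate number as a block, RNA heat in Col-0 called 1 member and the TE difference 0, and every other count stayed within 1.5 times.

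Over the fits without a library, counts for RNA ran from 0 to 14 (heat in Col-0), 19 to 51 (heat in fust1), 0 to 41 (genotypes at 37 °C) and 0 to 11 (difference). For footprints they ran from 4 to 47 (genotypes at 22 °C), 4 to 15 (genotypes at 37 °C) and 5 to 19 (difference). For TE they ran from 14 to 32 (heat in fust1), 0 to 22 (genotypes at 37 °C) and 0 to 41 (difference).

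The log2 change of the summed level, by TMM-scaled CPM in place of shares, was 0.23 in Col-0 and 1.01 in fust1 for RNA with heat, against -0.81 and 0.09. For footprints with heat it was 0.93 and 0.36, against -0.87 and -1.32. Footprints of fust1 over Col-0 were at 0.56 at 22 °C and -0.01 at 37 °C, against 0.64 and 0.20.

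Of 1629 recomputed values of named members, 144 lost a call, 29 gained one, 20 changed sign under library totals and 29 without a library. Under library totals RNA heat in Col-0 was -0.31 for AT1G48830, -0.33 for AT3G56340, -0.79 for EMB3010, -0.54 for PFL and -0.56 for RPS13A. RNA heat in fust1 was -0.28 for RPS6, and RNA between genotypes at 22 °C 0.05 for RPS6 and 0.07 for PFL. Footprint heat in Col-0 was -0.15 for RPS6, -1.74 for EMB3010, -1.73 for PFL, -0.35 for AT3G53870 and -0.86 for AT3G04840. Footprint heat in fust1 was -0.40 for AT2G40510, -1.03 for RPS6, -1.41 for PFL, -1.18 for P40 and -0.99 for AT3G53870. RPS13A was at 0.00 for the footprint difference and PFL at 0.00 for TE at 37 °C.

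Without a library, signs changed in values that were not called. RNA between genotypes at 22 °C ran from -0.21 to 0.18 for PFL, -0.20 to 0.24 for RPS13A and -0.28 to 0.17 for RPS6. RNA heat in Col-0 ran from -0.02 to 0.83 for PFL, -0.59 to 0.29 for RPS6 and -0.24 to 0.56 for EMB3010. Footprint heat in Col-0 ran from -0.28 to 0.19 for PFL and -0.13 to 0.11 for EMB3010. The footprint difference ran from -0.18 to 0.02 for RPS13A. TE at 37 °C ran from -0.54 to 0.31 for PFL and -0.76 to 0.04 for EMB3010. TE heat ran from -0.77 to 0.08 for PFL and -0.51 to 0.29 for EMB3010 in Col-0, and from -0.26 to 0.19 for RPS6 in fust1.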
